A study of Mus musculus with 8 samples.

Results

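The loci of 10 genes of the transforming growth factor-β (TGF-β) pathway were examined in lists of accessible chromatin from mouse mammary epithelial cells. The genes were the receptors *Tgfbr1*, *Tgfbr2* and *Tgfbr3* and the signal-carrying Smads *Smad2*, *Smad3* and *Smad4*, here called signal-carrying, and *Smad6*, *Smad7*, *Ski* and *Skil*, here called inhibitory. A locus was the annotated span of the gene with 20 kb on each side (GENCODE annotation of GRCm38, the build named mm10), and a peak belonged to it when it overlapped the locus by at least 1 bp. The 10 loci held 167 of the 129466 peaks of all lists. When the peaks of all libraries were merged into regions, they held 43 of 37230.

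Accessible chromatin had been recovered by FAIRE-seq, in which fragments of crosslinked, sheared DNA that carry little protein are collected by phenol extraction and sequenced. EpH4 is a mouse mammary gland epithelial line, and EpRas is its derivative transformed by active H-Ras. Each line was left untreated or given 1 ng/ml TGF-β3 for 8 days, with 2 replicate libraries in each of the 4 groups. EpH4 cells were grown in 10% and EpRas cells in 4% fetal bovine serum, so that serum and H-Ras cannot be told apart in any comparison of the lines, and each line stands for a single derivation.

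In the textbook pathway the ligand brings the type II receptor (*Tgfbr2*) together with the type I receptor (*Tgfbr1*), which phosphorylates Smad2 and Smad3, and these enter the nucleus with the shared partner Smad4. The co-receptor betaglycan (*Tgfbr3*) presents the ligand. Smad6 and Smad7 block the receptor or its substrates, and Ski and SnoN (*Skil*) repress transcription by binding the Smads in the nucleus, so the second group of genes opposes the first. *Smad7* and *Skil* are known target genes of the pathway that they restrain.

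The lists held 10821 to 27337 peaks per library. They give no read counts, so the depth was unknown and a missing peak says only that a site missed the authors' limit in that library. The study's methods describe the 2 libraries of a group as biological replicates, without saying more of how the cultures were separated. In the comparisons of 4 libraries against 4, each side pools both treatments or both lines. The spread behind those p-values is therefore that among libraries of mixed condition, and not that between replicates alone. With 4 libraries against 4, the exact permutation test has 70 assignments and cannot give a p-value under 0.0286.

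In EpH4 cells, peaks at the 10 loci numbered 17 and 19 without TGF-β (replicates 1 and 2) and 22 and 15 with it. In EpRas cells they numbered 26 and 15 without and 30 and 23 with TGF-β. The first TGF-β-treated EpRas library, which had the longest list, held the most, and it was alone in calling 6 of the 43 regions. Per 10000 peaks of the list, the loci took 13.6, 14.5, 12.3 and 13.9 peaks in the EpH4 libraries and 15.1, 10.9, 10.97 and 13.7 in the EpRas libraries, in the same order, and the lines overlapped.

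**Figure D1:**
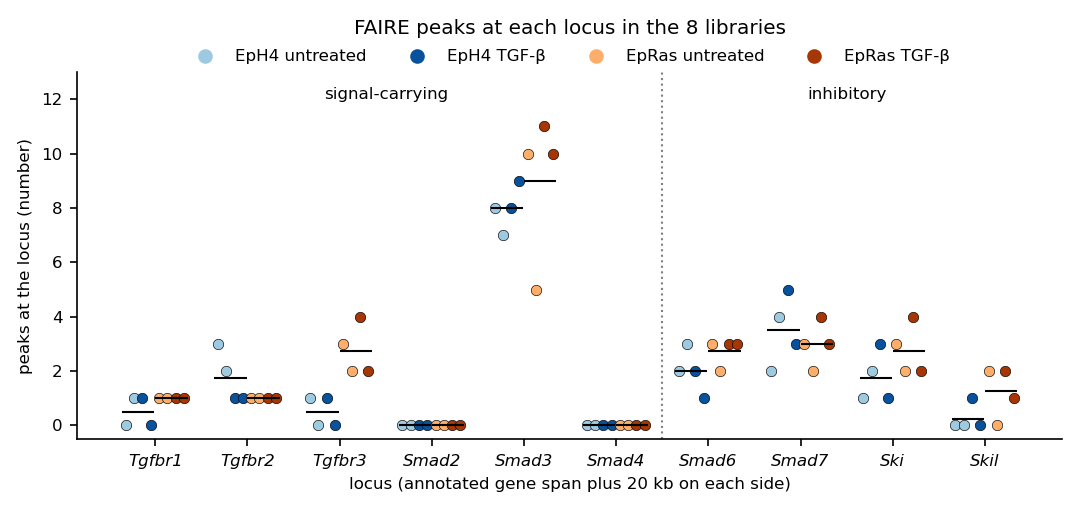
Number of FAIRE peaks (y axis) at each of the 10 loci (x axis) in the 8 libraries. Points are single libraries, colored by group, and black lines are the means of the 4 EpH4 and the 4 EpRas libraries. *Smad3* held 5 to 11 peaks, *Smad2* and *Smad4* 0 in every library, and at *Tgfbr3* alone the lines did not overlap.

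Counts ranged widely among the loci. *Smad3* (chr9:63646767-63757994, minus strand), a mediator that binds DNA itself, held 8 and 7 peaks in EpH4 cells without and 8 and 9 with TGF-β. In EpRas cells it held 10 and 5 without and 11 and 10 with TGF-β. Averaged over libraries, this was 5.62 peaks per 100 kb, a density above that of 95.2% of the 21938 protein-coding loci. *Smad7* (chr18:75367529-75395935, plus strand) followed with 4.75 peaks per 100 kb, above 92.6% of loci. The others with a peak ranged from 0.729 at *Tgfbr3* to 2.18 at *Smad6*. The median was 0.85 over all loci, with or without a peak, and 1.57 over those with a peak.

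*Smad2* (chr18:76241580-76310963, plus strand) and *Smad4* (chr18:73639009-73703780, minus strand) had no peak in any library. The nearest peak lay 258 to 581 kb from *Smad2* (median 332 kb over the 8 libraries) and 66.2 to 512 kb from *Smad4* (median 66.5 kb). A locus with no peak in any list was common: 28.2% of all protein-coding loci had none, as did 151 of 513 on chromosome 18 (29.4%), 16.9% of loci of about the size of these (with flanks), and 7 of the 30 such loci on chromosome 18 (23.3%). The receptor-activated Smads *Smad2* and *Smad3*, whose proteins do closely related work, thus stood at the opposite ends of the peak counts.

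Signal-carrying and inhibitory loci were then set side by side. The 6 signal-carrying loci (821 kb in all) held 12 and 10 peaks in EpH4 cells without and 11 and 10 with TGF-β, and 15 and 9 in EpRas cells without and 17 and 14 with it. The 4 inhibitory loci (353 kb) held 5 and 9, 11 and 5, 11 and 6, and 13 and 9 peaks in the same order. Per 100 kb this was 1.49 ± 0.343 for the signal-carrying and 2.44 ± 0.855 for the inhibitory loci (SD, n = 8 libraries), with medians over the loci of 0.733 and 2.13. Without *Smad3* the signal-carrying loci fell to 0.560 ± 0.222. Outside chromosome 18, which takes away *Smad2*, *Smad4* and *Smad7*, the pooled densities were 2.02 and 1.89 peaks per 100 kb, in the other order, while the medians over the loci were 0.893 and 2.07. The inhibitory loci were thus higher by the median with and without chromosome 18, and by the pooled density only with it. No test was run over the members.

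**Figure D2:**
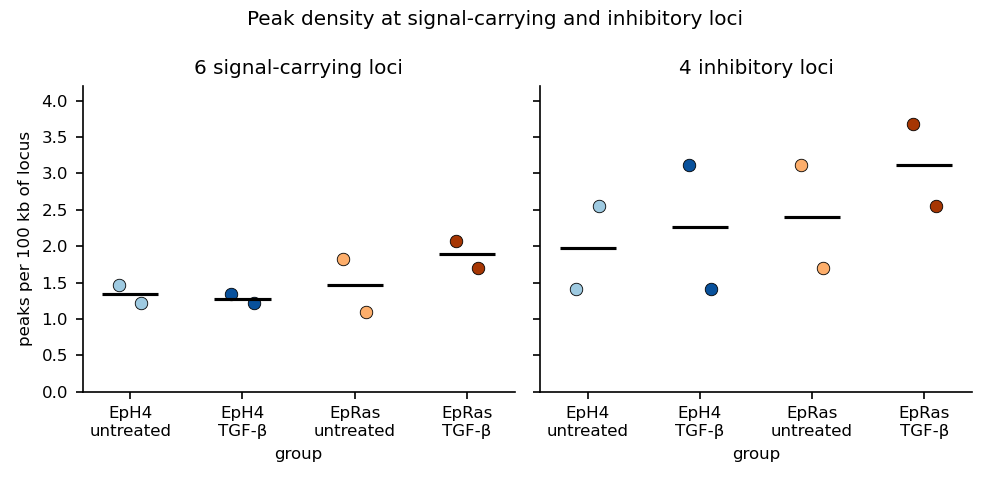
Peaks per 100 kb (y axis) at the 6 signal-carrying loci (left) and the 4 inhibitory loci (right) by group (x axis). Points are libraries, replicate 1 on the left, and lines are the means of 2 libraries; the inhibitory loci ranged from 1.41 to 3.68 and the signal-carrying loci from 1.10 to 2.07, so the ranges overlap.

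**Figure D3:**
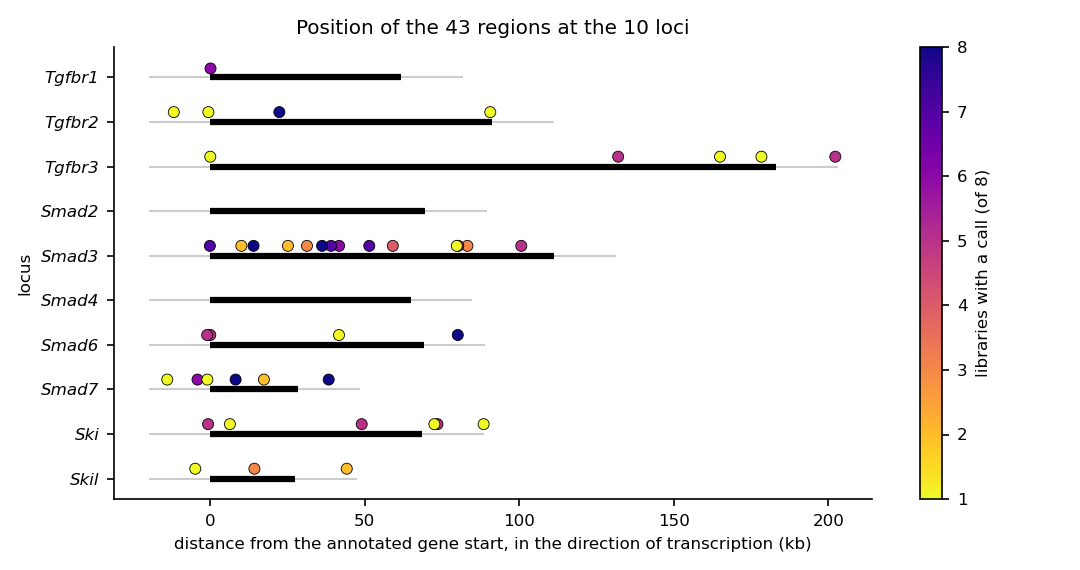
Position of the 43 regions along the 10 loci. The x axis is the distance from the annotated gene start in kb, counted in the direction of transcription, thick bars are gene bodies, thin lines the 20 kb flanks, and color gives the number of libraries with a call. *Smad3* alone held 14 of the 43 regions, and the 6 regions called in all 8 libraries lay away from the gene starts.

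Most regions at these genes were intronic. The regions were taken from gene spans and their flanks, which by itself favors introns over sites between genes. Of the 43, 24 lay in an intron (55.8%, against 34.3% of all regions), 9 within 2 kb of an annotated start site (20.9% against 31.7%), 9 between genes (20.9% against 31.8%) and 1 in an untranslated region. All 8 libraries called 6 of them (13.95%, against 11.4% of all regions), of which 3 were at signal-carrying and 3 at inhibitory loci, and 14 were called in a single library (32.6% against 31.6%). The share of regions found in every library was thus close to the genome's.

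**Figure D4:**
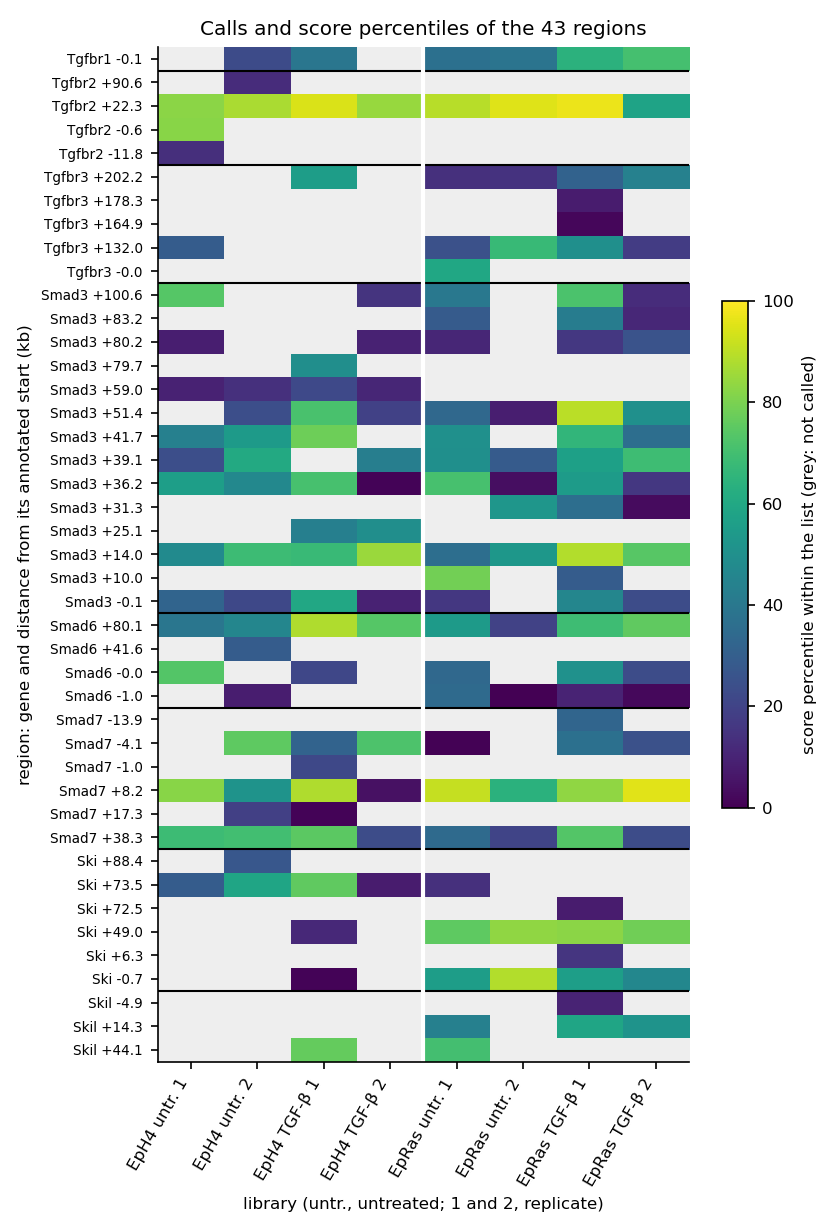
Calls of the 43 regions (rows, named by gene and by distance from the gene start in kb) in the 8 libraries (columns). Color is the percentile of the peak's score within its list, from 0 for the lowest to 100 for the highest, and grey is no call. The intronic *Tgfbr2* region at 22.3 kb was bright in nearly every library, and the *Smad3* region at 59.0 kb was called in the EpH4 columns only.

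The starts of the genes differed in how often they were called. The start of *Tgfbr1* (chr4:47353222-47414931, plus strand) was called in 6 libraries, that of *Smad3* in 7, that of *Smad6* (chr9:63953076-64022059, minus strand) in 7 over a pair of neighboring regions, and that of *Ski* (chr4:155154075-155222592, minus strand) in 5. The starts of *Tgfbr2* (chr9:116084293-116175360, minus strand), *Tgfbr3* (chr5:107106570-107289629, minus strand) and *Smad7* were called in 1 library each. Those of *Smad2*, *Smad4* and *Skil* (chr3:31095058-31122577, plus strand) were called in 0. Among 21911 protein-coding genes, 42.4% had a start called in at least 1 library and 23.7% in at least 5. The call at the receptor *Tgfbr1* was the whole of its locus: it had no other region, and the 2 libraries without it, untreated EpH4 replicate 1 and TGF-β-treated EpH4 replicate 2, were the shortest lists.

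The upstream part of the *Tgfbr1* start region is shown because it is the only site called at this receptor. It held none of the motifs searched, which were TGAGTCA for AP-1, GTCTAGAC for the palindromic Smad element, CAGACA for the CAGA box core, CCGGAA for ETS factors and TGTGGTT for RUNX factors, on both strands.
Tgfbr1 start, chr4:47352955-47353221, plus strand: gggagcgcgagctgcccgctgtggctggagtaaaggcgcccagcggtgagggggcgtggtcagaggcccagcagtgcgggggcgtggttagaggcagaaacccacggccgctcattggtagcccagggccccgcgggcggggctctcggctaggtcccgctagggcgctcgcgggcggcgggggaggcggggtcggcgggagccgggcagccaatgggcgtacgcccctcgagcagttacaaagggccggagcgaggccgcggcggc

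The type II receptor carried the highest-ranked of the sites called everywhere. An intronic region of *Tgfbr2*, 22.3 kb inside the gene (chr9:116152786-116153268), was called in all 8 libraries with score percentiles of 82.8 and 87.2 in EpH4 cells without and 94.3 and 84.6 with TGF-β, and of 89.1 and 95.3 in EpRas cells without and 97.0 and 58.1 with it. Its mean of 86.0 was the highest of the 6 regions called everywhere. The percentiles overlapped between the lines (exact permutation test, two-sided, p = 0.971) and between the treatments (p = 0.771 by the same exact test). Beyond it the locus had 3 regions, each called in 1 untreated EpH4 library only, so peaks at *Tgfbr2* numbered 3 and 2 in untreated EpH4 cells and 1 in each of the other 6 libraries. The central 300 bases of that region are given below, with the match to the AP-1 letters, here on the minus strand, in capitals.
Tgfbr2 +22.3 kb, chr9:116152878-116153177, plus strand: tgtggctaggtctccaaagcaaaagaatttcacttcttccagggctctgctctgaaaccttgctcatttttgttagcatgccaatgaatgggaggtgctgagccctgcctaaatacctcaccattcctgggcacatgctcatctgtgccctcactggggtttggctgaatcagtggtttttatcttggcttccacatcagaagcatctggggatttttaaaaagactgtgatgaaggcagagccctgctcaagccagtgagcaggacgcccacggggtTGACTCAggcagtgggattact

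The comparison of the lines asked whether accessible sites at these genes differ with H-Ras transformation. *Tgfbr3*, the gene of the co-receptor, was the only one of the 8 loci with peaks at which they did not overlap. It had 1 and 0 peaks without and 1 and 0 with TGF-β in EpH4 cells, against 3 and 2 without and 4 and 2 with TGF-β in EpRas cells. Means were 0.50 ± 0.577 in EpH4 and 2.75 ± 0.957 in EpRas libraries (SD, n = 4 each), a difference of 2.25 peaks. The exact permutation test gave p = 0.0286, the smallest it can give, and 0.593 after Benjamini-Hochberg adjustment over the 15743 loci with a peak. Counts above those of every EpH4 library were found in EpRas cells at 4.27% of these loci, and counts below in 0.553%.

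Most of the *Tgfbr3* difference came from 2 sites that were called in all 4 EpRas libraries. One lay in an intron, 132.0 kb from the gene start (chr5:107157537-107157816), at percentiles of 24.97, 67.4, 49.9 and 17.8 in EpRas cells, and it was also called in untreated EpH4 replicate 1 (29.1). The other lay past the end of the gene, at 202.2 kb (chr5:107087239-107087604), at 13.9, 14.7, 31.5 and 43.9 in EpRas cells and at 55.8 in TGF-β-treated EpH4 replicate 1. Neither was therefore silent in every EpH4 library, and the percentiles of both in EpRas cells were mostly below the middle of the lists. The rest of the difference came from regions called in 1 EpRas library each. These were the gene start, at percentile 59.7 in untreated replicate 1, and intronic regions at 178.3 and 164.9 kb. The intronic regions were called in TGF-β-treated replicate 1, the longest list, at 7.74 and 1.73. The sequences of the 2 sites are shown because most of the difference rests on them. Both sites were chosen for display after their values were seen. Capitals mark an AP-1 match in the second.
Tgfbr3 +132.0 kb, chr5:107157537-107157816, plus strand: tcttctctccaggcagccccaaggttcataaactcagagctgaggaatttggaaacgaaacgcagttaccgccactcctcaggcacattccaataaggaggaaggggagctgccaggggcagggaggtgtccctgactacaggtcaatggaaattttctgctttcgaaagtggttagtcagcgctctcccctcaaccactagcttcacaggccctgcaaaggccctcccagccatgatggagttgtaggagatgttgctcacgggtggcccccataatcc
Tgfbr3 +202.2 kb, chr5:107087272-107087571, plus strand: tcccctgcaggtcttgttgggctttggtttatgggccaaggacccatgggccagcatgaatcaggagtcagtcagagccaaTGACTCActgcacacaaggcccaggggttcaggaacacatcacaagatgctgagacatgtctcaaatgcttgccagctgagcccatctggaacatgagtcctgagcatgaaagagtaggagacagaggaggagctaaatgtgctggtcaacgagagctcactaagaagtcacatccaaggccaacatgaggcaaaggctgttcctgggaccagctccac

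The surroundings of *Tgfbr3* moved the same way. Within 5 Mb on either side, outside the locus, EpH4 libraries had 18 to 40 peaks and EpRas libraries 49 to 113, a ratio of means of 2.61. Per 10000 peaks of the list the ranges were 16.6 to 23.3 and 35.1 to 45.9, again without overlap. The share of all peaks on chromosome 5 ran the other way, at 7.11% to 7.71% in EpH4 and 5.40% to 5.76% in EpRas libraries. The part of the surroundings in the *Tgfbr3* difference was not tested. The difference depended on weak peaks: with the 10821 highest-scoring peaks of every list it was 0.25, and the lines overlapped. With no flank, which leaves out the site at 202.2 kb, it was 1.5, and they overlapped too.

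**Figure D5:**
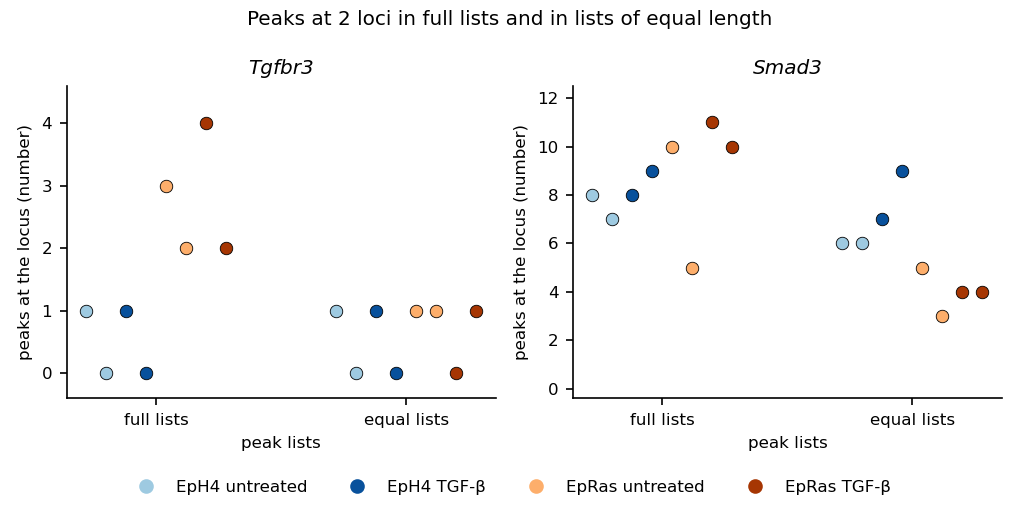
Peaks (y axis) at *Tgfbr3* (left) and *Smad3* (right) in the full lists and in lists cut to the same number of highest-scoring peaks. Points are libraries, in the order of the groups in the key. At *Tgfbr3* the lines part in the full lists only (0 to 1 against 2 to 4 peaks), and at *Smad3* in the equal lists only (6 to 9 in EpH4 against 3 to 5 in EpRas cells).

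At *Smad3* the direction turned with the length of the lists. With the full lists, EpH4 libraries held 8.0 ± 0.816 and EpRas libraries 9.0 ± 2.708 peaks (SD, n = 4 each), which overlapped (exact permutation test, two-sided, p = 0.629). With 10821 peaks in each list, EpH4 cells held 6 and 6 peaks without and 7 and 9 with TGF-β, and EpRas cells 5 and 3 without and 4 and 4 with it. Here every EpH4 library stood above every EpRas library, by 3.0 peaks in the mean (exact permutation test, p = 0.0286, adjusted 0.639 over 13994 loci). At equal length, EpRas lay below all EpH4 libraries at 2.26% of loci and above all of them at 2.22%. Within 5 Mb outside the locus, full lists held 67.5 to 87.5 peaks per 10000 in EpH4 and 63.0 to 71.1 in EpRas libraries. These ranges overlapped. The share of all peaks on chromosome 9 was 5.21% to 5.73% in EpH4 and 4.24% to 4.75% in EpRas libraries. The part of these in the difference was not tested. Leaving untreated EpRas replicate 2 out of the full lists instead put EpRas above EpH4 without overlap, with a difference of 2.33 peaks. Leaving a library out loosens the rule, and the share of all loci under the looser rule was not computed. Shortening the lists took the EpH4 mean from 8.0 to 7.0 peaks and the EpRas mean from 9.0 to 4.0, and no direction held at both lengths.

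One of the 43 regions separated the lines in the full lists, in the sense of calls in all 4 libraries of 1 line and 0 of the other. It was an intronic *Smad3* region 59.0 kb from the gene start (chr9:63698750-63699163), called at percentiles of 9.57, 14.0, 22.1 and 10.9 in the EpH4 libraries. All 4 are low ranks. Among all regions, 0.752% were called in every EpH4 and no EpRas library, and 1.98% the other way, a pattern found at 0 of the members' regions. Without TGF-β-treated EpH4 replicate 1, the count of separating regions rose from 1 to 4, and without either untreated EpRas library to 3. Leaving a library out loosens the rule, which by itself can raise the count. The share of all regions under the looser rule was not computed. The 300 central bases below held none of the motifs searched.
Smad3 +59.0 kb, chr9:63698807-63699106, plus strand: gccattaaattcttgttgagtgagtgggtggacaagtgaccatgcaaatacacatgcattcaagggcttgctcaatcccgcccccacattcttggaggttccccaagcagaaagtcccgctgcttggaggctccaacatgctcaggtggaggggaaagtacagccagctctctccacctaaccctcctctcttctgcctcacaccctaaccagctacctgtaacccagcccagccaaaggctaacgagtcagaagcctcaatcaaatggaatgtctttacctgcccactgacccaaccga

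With lists of equal length, 3 member regions separated the lines, and the region at 59.0 kb was not among them. The *Smad3* start (chr9:63757916-63758321) was called in the 4 EpH4 libraries, as was a region past the end of *Ski*, 73.5 kb from its start (chr4:155148856-155149351). An intronic *Ski* region at 49.0 kb (chr4:155173444-155173793) was called in the 4 EpRas libraries. At this length 1.54% of all regions were called in EpH4 libraries only and 1.12% in EpRas libraries only.

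*Ski*, the gene of the nuclear co-repressor, therefore held a pair of distal sites with opposite patterns between the lines. In the full lists the intronic site at 49.0 kb had percentiles of 75.3, 83.4, 82.8 and 78.5 in the 4 EpRas libraries, and in EpH4 cells it was called in TGF-β-treated replicate 1 alone, at 11.5. The site at 73.5 kb had percentiles of 29.1, 58.8, 75.5 and 7.80 in the 4 EpH4 libraries, and in EpRas cells it was called in untreated replicate 1 alone, at 13.9. The *Ski* start was called with the intronic site, in the same 5 libraries, at 55.7, 88.5, 56.1 and 46.4 in EpRas cells and at 0.962 in the EpH4 library. The number of peaks hid this: the locus held 1, 2, 3 and 1 peaks in the EpH4 and 3, 2, 4 and 2 in the EpRas libraries (exact permutation test, two-sided, p = 0.314). With a stricter score limit (15.51) the counts of the lines did not overlap, with a difference of 1.75 peaks. The share of all loci that part the lines at this limit was not computed. These 3 regions were singled out after their values were seen. Within 5 Mb outside the locus, peaks per 10000 of the list also did not overlap, at 23.3 to 31.8 in EpH4 and 32.7 to 39.2 in EpRas libraries, and the part of this in the calls was not tested. Capitals mark a CAGA core in the sequence of the site at 49.0 kb, and the other held no match.
Ski +49.0 kb, chr4:155173469-155173768, plus strand: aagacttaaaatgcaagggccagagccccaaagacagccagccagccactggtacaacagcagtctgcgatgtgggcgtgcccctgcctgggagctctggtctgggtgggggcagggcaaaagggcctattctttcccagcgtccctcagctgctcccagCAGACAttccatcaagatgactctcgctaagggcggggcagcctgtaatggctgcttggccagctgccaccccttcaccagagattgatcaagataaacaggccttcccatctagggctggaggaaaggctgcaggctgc
Ski +73.5 kb, chr4:155148954-155149253, plus strand: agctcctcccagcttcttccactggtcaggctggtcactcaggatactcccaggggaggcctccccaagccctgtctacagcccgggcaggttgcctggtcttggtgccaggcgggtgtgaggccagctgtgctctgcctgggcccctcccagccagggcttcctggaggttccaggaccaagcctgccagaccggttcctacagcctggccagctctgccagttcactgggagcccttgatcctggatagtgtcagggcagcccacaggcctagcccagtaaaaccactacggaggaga

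The other loci gave no separation of the lines. *Tgfbr1* held 0, 1, 1 and 0 peaks in the EpH4 libraries and 1 in each EpRas library (exact permutation test, two-sided, p = 0.429). *Smad6*, an inhibitory Smad, held 2, 3, 2 and 1 against 3, 2, 3 and 3 (p = 0.371 by the exact test), and *Smad7* 2, 4, 5 and 3 against 3, 2, 4 and 3 (exact p = 0.771). *Skil* held 0, 0, 1 and 0 against 2, 0, 2 and 1 (exact p = 0.257). An intronic *Skil* region at 14.3 kb (chr3:31109182-31109461) was called in 3 of 4 EpRas libraries, at percentiles of 43.7, 58.8 and 51.4, and in no EpH4 library. The *Smad3* region at 83.2 kb was called in the same 3 libraries only. That at 31.3 kb was also called in 3 EpRas libraries and no EpH4 library. The share of all regions with such a pattern was not computed. EpRas means were above EpH4 means at 6 of the 8 loci, *Tgfbr2* and *Smad7* being below. At all loci with a peak, the median difference was 0.25 peaks, on the side of the longer EpRas lists.

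The comparison of treatments asked whether TGF-β changes accessible sites at the genes of its own pathway. No member locus separated TGF-β-treated from untreated libraries. Over all loci, 0.394% had counts above and 0.0445% counts below those of every untreated library. The mean difference was above 0 at 5 loci, below 0 at 2 and equal to 0 at *Tgfbr1*. The largest was at *Smad3*, where untreated libraries held 7.5 ± 2.082 and treated libraries 9.5 ± 1.291 peaks (SD, n = 4 each; exact permutation test, two-sided, p = 0.229). *Smad7* and *Skil*, the target genes among the inhibitors, had means of 2.75 and 3.75 (exact p = 0.314) and of 0.50 and 1.0 (exact p = 0.657). The TGF-β effect in EpRas less that in EpH4 cells ranged from 0 to 2.0 peaks over the loci, with p-values from 0.333 to 1 (exact permutation of line labels within treatment, 36 assignments, smallest possible 0.0556).

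No member region was called in all treated and no untreated libraries or the reverse, patterns seen in 0.32% and 0.0188% of all regions. In EpH4 cells 1 member region was called in both treated and no untreated libraries, against 3.27% of all regions, and 0 were lost in this sense (1.68%). In EpRas cells 0 were gained (7.64%) and 0 lost (0.927%). With 2 libraries a side, these counts turned on single libraries. In EpH4 cells, 7 were gained without TGF-β-treated replicate 2 and 3 without untreated replicate 2, and 4 or 3 were lost without untreated replicate 1 or 2, and 1 without either treated library. In EpRas cells, 8 were gained without untreated replicate 1, 6 without TGF-β-treated replicate 2 and 1 without untreated replicate 2, and 3 were lost without untreated replicate 2. With the stricter score limit, 5 were gained in EpRas cells, and with equal lists 1. Leaving a library out loosens the rule, since fewer libraries must meet it. The shares of all regions were not computed under these settings, so these counts cannot be set against the shares above. The gained region was an intronic *Smad3* site at 25.1 kb (chr9:63732778-63732995), at percentiles of 43.01 and 49.2 in the TGF-β-treated EpH4 libraries and called nowhere else, as were 0.86% of all regions. Regions called only in untreated EpH4 (0.424%), only in untreated EpRas (0.451%) or only in TGF-β-treated EpRas cells (4.21%) numbered 0 at the members. The whole of the *Smad3* region is shown, with the AP-1 match in capitals.
Smad3 +25.1 kb, chr9:63732778-63732995, plus strand: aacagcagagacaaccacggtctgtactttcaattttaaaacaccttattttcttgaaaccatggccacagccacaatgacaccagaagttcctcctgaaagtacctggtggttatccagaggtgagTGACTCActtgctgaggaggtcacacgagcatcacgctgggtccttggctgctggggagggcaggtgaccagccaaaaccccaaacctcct

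Score ranks showed 1 difference with treatment that calls alone did not. A site downstream of *Smad6*, between genes at 80.1 kb from its start (chr9:63941774-63942216), was called in all 8 libraries. Its percentiles were 39.4 and 45.8 in EpH4 cells without and 88.2 and 73.8 with TGF-β, and 54.3 and 19.7 in EpRas cells without and 68.9 and 75.6 with it. Every treated library stood above every untreated one, in both lines. The part of list length in these ranks was not tested. Means were 76.6 ± 8.25 with and 39.8 ± 14.7 without TGF-β (SD, n = 4 each), a difference of 36.8 percentile points (exact permutation test, two-sided, p = 0.0286, adjusted 0.996 over the 4259 regions called everywhere). Treatments did not overlap at 2.86% of these regions, and lines at 8.12%. At the members this was 1 of 6 regions for the treatments and 0 of 6 for the lines. In lists of equal length the region was not called in every library, so it had no value there. Its central 300 bases are given with the AP-1 match, on the minus strand, in capitals.
Smad6 +80.1 kb, chr9:63941846-63942145, plus strand: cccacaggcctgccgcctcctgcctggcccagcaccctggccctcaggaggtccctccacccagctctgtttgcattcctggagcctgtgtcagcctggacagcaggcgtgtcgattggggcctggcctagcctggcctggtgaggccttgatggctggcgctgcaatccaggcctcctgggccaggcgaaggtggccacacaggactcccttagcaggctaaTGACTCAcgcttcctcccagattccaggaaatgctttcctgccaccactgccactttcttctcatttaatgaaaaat

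An intronic *Smad3* site at 14.0 kb (chr9:63743793-63744231) came next by the size of its change. Its percentiles were 48.0 and 68.7 in EpH4 cells without and 67.9 and 85.0 with TGF-β, and 36.2 and 53.1 in EpRas cells without and 88.5 and 73.9 with it. Within each line both means were higher with TGF-β, but the second untreated EpH4 library lay above the first treated one. Means over the lines were 78.8 ± 9.57 and 51.5 ± 13.5 (SD, n = 4 each), which overlapped (exact permutation test, two-sided, p = 0.0571, adjusted 0.996). The overlap rested on those 2 libraries alone, so leaving out either of them removes it by construction and tests nothing. With scores taken as log2 over the median of the list, the treatments did not overlap. The share of all regions that part on that scale was not computed. The sequence holds an AP-1 and a RUNX match, both in capitals and both on the minus strand.
Smad3 +14.0 kb, chr9:63743863-63744162, plus strand: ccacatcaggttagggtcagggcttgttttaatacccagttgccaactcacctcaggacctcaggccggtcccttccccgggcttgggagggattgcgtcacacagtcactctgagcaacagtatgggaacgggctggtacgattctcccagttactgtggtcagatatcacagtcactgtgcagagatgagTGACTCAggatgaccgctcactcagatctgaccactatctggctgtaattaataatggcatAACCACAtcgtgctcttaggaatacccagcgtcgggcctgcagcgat

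The remaining regions called in all libraries overlapped between treatments and lines. The *Smad7* intronic site at 8.2 kb had a mean percentile of 70.03, with 82.4 and 51.3 in EpH4 cells without and 88.0 and 4.45 with TGF-β, and 91.3 and 64.0 in EpRas cells without and 83.3 and 95.5 with it. The value of 4.45 stood far from the others and made the treated EpH4 pair disagree. The *Smad7* site at 38.3 kb had a mean of 48.5, and the *Smad3* site at 36.2 kb a mean of 40.1, with a range from 0.887 to 71.1. The exact permutation p-values of these 3 regions between treatments ran from 0.743 to 1.

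The Smad palindrome was found at 1 of the 43 regions, the start of *Smad6*, against 0.309% of 37221 regions of the genome scanned in the 300 bases about their midpoints. It lay at chr9:64022056-64022063, beginning 4 bases upstream of the annotated start and reaching across it, inside the called region. The site was called in 5 libraries, at percentiles of 73.4 in untreated EpH4 replicate 1, 21.4 in TGF-β-treated EpH4 replicate 1, 33.6 in untreated EpRas replicate 1, and 50.7 and 23.3 in the TGF-β-treated EpRas libraries. These groups of libraries hold both treatments. A match is a description of the letters and not evidence of binding. The 30 bases around the palindrome follow, with the match in capitals.
Smad6 start, chr9:64022045-64022074, plus strand: atcatatgccaGTCTAGACactttggcggc

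AP-1 letters were at 16 of the 43 regions (37.2%), against 34.7% of all regions. They were at 16 of the 34 member regions outside promoters, where 44.3% of all such regions had a match, and at 0 of the 9 promoter regions, against 14.3% of all promoter regions. *Smad3* held 8 of the 16, the signal-carrying loci together 12 and the inhibitory loci 4, and 5 of the 6 regions called in all 8 libraries had a match. All 6 lay outside promoters, and among the 2142 such regions of the genome that were called everywhere and scanned, the share was 54.5%. The CAGA core was at 5 member regions (11.6% against 25.4%), RUNX letters at 6 (14.0% against 11.5%) and the ETS core at 2 (4.65% against 11.5%). The motifs do not overlap each other by their letters in the sequences shown, and no difference from the genome was tested. Member regions had a median GC content of 53.0% and all regions one of 49.0%.

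Another 46 genes of the pathway were counted for comparison: 9 ligands, 10 receptors, 4 other Smads or their anchor, 11 regulators and 12 targets or matrix proteins. Of these, 6 had no peak and 40 were tested. Counts of 1 gene were higher in every EpRas library (4.27% of all loci with a peak), and 0 were lower (0.553%). With TGF-β, 0 were higher (0.394%) and 0 lower (0.0445%) in every treated library. The median density of the 46 genes was 1.08 peaks per 100 kb, and that of the 10 members 1.08 as well. The gene that parted the lines was *Acvr1*, a type I receptor of the bone morphogenetic protein branch (chr2:58388644-58567157, minus strand), with 0, 1, 0 and 0 peaks in the EpH4 and 3, 4, 4 and 4 in the EpRas libraries (p = 0.0286 by the exact permutation test, 0.593 when adjusted over all loci). At equal list length it held 0, 1, 0 and 0 against 1, 2, 2 and 2 peaks, and the lines touched at 1. Its surroundings within 5 Mb also held more peaks per 10000 in every EpRas library, at 18.9 to 23.0 against 9.24 to 17.7, and the part of this was not tested.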

How the data were processed

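FAIRE-seq peak lists of 8 libraries (EpH4 and EpRas, with and without TGF-β, 2 replicates each) were used as deposited. The authors used Bowtie2 to map Ion Proton reads to mm10 and MACS2 (version 2.0.9 per the labels) to call peaks, 1 list per library and replicates not pooled. Each deposited line holds a peak and a score without a stated unit (5.08 to 778.82), used here only as a percentile rank within the list. Depth is unknown, so no interval is given. Handling of duplicates and of a control is not given in the sources used here.

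Peaks were merged into regions across libraries and assigned to loci with GENCODE vM21 on GRCm38.p6, in Python 3.11.15 (numpy 2.4.6, pandas 2.3.3). Values of 4 against 4 libraries were compared by exact permutation (two-sided) on all loci or regions, adjusted by Benjamini-Hochberg over all tested; a call required that the groups did not overlap. The code was tested on simulated data. Motifs were searched as exact letters on both strands, and sequences are from the reference genome.

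All 10 genes were named, with regions that separated the lines or treatments, were called in 1 group only, lay over a start, or ranked highest among those called everywhere. Pathway genes were named where groups did not overlap. Members and lists were chosen with earlier results of these data known. Alternatives were lists of equal length, a stricter score limit, other flanks, scalings and overlaps, a replicate block, and leaving out each library.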

Additional observations from a re-analysis of the deposited data

Results flagged for a closer look

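In 53 sets of 4 libraries of 1 line or 1 treatment, a library was looked for that stood far from the other 3, by a gap to its nearest neighbor that takes up nearly the whole range (Dixon's 95% limit). For normally distributed values chance gives this in about 1 set in 20. A peak count that differs in 1 library from 3 equal counts always passes the limit, and the sets share libraries. The number found can therefore not be set against that rate. In all, 8 were found, most of them in counts of 0 to 3 where a single peak decides. At *Tgfbr1*, untreated EpH4 replicate 1 held 0 peaks against 1 in each other untreated library, and TGF-β-treated EpH4 replicate 2 held 0 against 1 in each other treated library. At *Smad3*, untreated EpRas replicate 2 held 5 peaks against 10 to 11 in the other EpRas libraries, and at *Smad6* the same library held 2 against 3. At *Skil*, TGF-β-treated EpH4 replicate 1 held 1 peak against 0 in the other EpH4 libraries, and untreated EpRas replicate 1 held 2 against 0 in the other untreated libraries. The score percentile of the *Smad7* region at 8.2 kb was 4.45 in TGF-β-treated EpH4 replicate 2 against 83.3 to 95.5 in the other treated libraries. That of the *Smad7* region at 38.3 kb was 23.2 in the same library against 68.5 to 74.7 in the other EpH4 libraries.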

How the results depend on the processing

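Depth was unknown, and 17 alternatives were computed. Of 470 comparisons with the reported values, 418 did not reverse, change a call or move a count by over 1.5 times, although 22 of these were differences that went to or from 0. Another 3 lost and 2 gained a call, 11 reversed, and 36 counts moved by over 1.5 times. The cause was not tested.

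The count of 1 locus that parted the lines was 0 without flanks, where the *Tgfbr3* difference was 1.5, and 1 to 2 with a library left out, the 2 arising without untreated EpRas replicate 2. With equal lists it was 1, but the locus was *Smad3* and the direction reversed (-3.0). With the stricter score limit (15.51) it was 1, but the locus was *Ski* (1.75), and *Tgfbr3* fell to 0.50. Regions separating the lines (1) became 3 with equal lists, 2 with the stricter limit, and 1 to 4 with a library left out: 4 without TGF-β-treated EpH4 replicate 1, 3 without either untreated EpRas replicate, and 2 without either untreated EpH4 replicate. Regions whose percentiles parted the treatments (1) became 0 with equal lists, the stricter limit or no flank. Without a flank the *Smad6* region at 80.1 kb lies outside the locus and drops out by definition. With equal lists it was not called in every library, and with the stricter limit only 1 member region was. These settings therefore could hardly test the result. Such regions numbered 2 with log2 scores over the list median, and 1 to 2 with a library left out. The 2 arose without untreated EpH4 replicate 2 or TGF-β-treated EpH4 replicate 1. In each case of 2, the *Smad3* region at 14.0 kb joined the *Smad6* region at 80.1 kb. Regions gained or lost with TGF-β within a line ran from 0 to 8 with a library left out. Leaving a library out loosens each of these rules, which by itself can raise a count. The shares of all loci or regions were not computed for those settings, nor for the stricter limit.

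Other differences reversed as well, without a call in either direction. With equal lists, EpRas minus EpH4 was -0.75 at *Smad6*, and TGF-β minus untreated was -0.25 at *Tgfbr3* and -0.50 at *Ski*. With the stricter limit, TGF-β minus untreated was 0.75 at *Smad6*. Per 10000 peaks of the list, EpRas minus EpH4 was -1.29 at *Smad3*, and TGF-β minus untreated was -0.197 at *Tgfbr3* and -0.0688 at *Ski*. With a library left out, TGF-β minus untreated ran from -0.50 to 0.83 at *Tgfbr3* and from -0.50 to 0.17 at *Smad6*.

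Replicate numbers did not pair the libraries: deviations from group means correlated at -0.0545 to 0.00216 between same-numbered libraries. With the replicate number as a block, regions whose percentiles parted the treatments numbered 2, the *Smad3* region at 14.0 kb being added, and the other 5 counts were as without the block.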
